A study of Mus musculus with 12 samples.

Results

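Hyaluronan synthases, hyaluronidases and the hyaluronan receptor Cd44 were followed as 6 listed genes out of the 47643 gene IDs in the tables: Has1, Has2, Has3, Hyal1, Hyal2 and Cd44. They were chosen by name for their place in hyaluronan turnover, with earlier results of these data known. Their values were found by matching gene IDs, without the version number, to symbols. RNA-seq of C57BL/6 mice aged 10 weeks covered 4 groups of 3 libraries: whole skin of wild type mice (Skin WT), whole skin of Adam17 conditional knockout mice (Skin KO), epidermis of wild type mice (Epidermis WT) and epidermis of the knockout (Epidermis KO). In the knockout, floxed Adam17 alleles were combined with Sox9-Cre, which acts mainly in hair follicle cells and their descendants, so a whole skin or epidermis library can also hold cells in which Adam17 was not deleted. Whether the wild type mice carried Cre or floxed alleles is not given in the sources used here. Nothing in the labels states that replicates are different animals, so p-values measure only the spread between these libraries. How much of that spread is technical in the wild type groups is not known. The skeletal muscle marker sums given below differ widely between Skin WT replicates. In the knockout groups the sex-linked reads given below differ between replicates, so those libraries are not all repeats of the same sample.

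Hyaluronan is a long unsulfated glycosaminoglycan that the synthases Has1, Has2 and Has3 build at the plasma membrane from UDP-glucuronic acid and UDP-N-acetylglucosamine and push out of the cell. Hyal2 starts its breakdown at the cell surface and Hyal1 continues it in lysosomes. Cd44 is the main hyaluronan receptor, is abundant on keratinocytes and leukocytes, and is itself cut at the cell surface by Adam10 and Adam17 proteases. In epidermis, hyaluronan fills the space between keratinocytes and its amount is known to go up in wounded and inflamed skin.

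The RefSeq promoter table (GRCm38.p6) held 4 of the 6 members, and Has2 and Has3 are not among them. The 250 bases upstream of the start are printed for the 3 matched members that passed the test in at least 1 tissue, so that their promoters can be set beside their responses. Capitals mark matches, on either strand, to the motifs searched: the AP-1 motif TGANTCA, the STAT motif TTCNNNGAA, the GC box GGGCGG and the NF-kappaB motif. The Cd44 sequence is chr2:102901666-102901915 on the minus strand, that of Hyal1 is chr9:107576700-107576949 and that of Hyal2 is chr9:107568913-107569162, both on the plus strand. The starts used are those of the RefSeq table. The Hyal2 window lies inside the gene as annotated below, which begins at 107567945. The end of the Hyal1 window also passes the annotated gene start at 107576927.
Cd44: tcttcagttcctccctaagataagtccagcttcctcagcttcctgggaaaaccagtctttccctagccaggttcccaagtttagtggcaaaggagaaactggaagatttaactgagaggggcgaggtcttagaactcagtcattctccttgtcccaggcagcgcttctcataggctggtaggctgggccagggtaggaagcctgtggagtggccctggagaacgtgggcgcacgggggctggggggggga
Hyal1: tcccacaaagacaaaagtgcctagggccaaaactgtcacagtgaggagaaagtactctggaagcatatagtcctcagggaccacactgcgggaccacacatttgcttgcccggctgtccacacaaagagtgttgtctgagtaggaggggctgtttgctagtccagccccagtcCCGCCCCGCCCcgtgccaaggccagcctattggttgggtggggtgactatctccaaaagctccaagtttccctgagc
Hyal2: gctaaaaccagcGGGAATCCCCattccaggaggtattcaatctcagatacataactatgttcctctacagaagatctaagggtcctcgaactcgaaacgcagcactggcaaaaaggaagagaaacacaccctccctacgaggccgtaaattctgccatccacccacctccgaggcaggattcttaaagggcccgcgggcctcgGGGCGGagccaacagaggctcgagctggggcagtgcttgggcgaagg
The window of Hyal1 held 2 adjoining matches to the GC box, that of Hyal2 held 1 match to the GC box and 1 to the NF-kappaB motif, and that of Cd44 held no match to any of the 4 motifs. Among 32851 promoters of the table, 32.7% held a GC box in the same window, 7.3% the NF-kappaB motif, 7.0% the STAT motif and 6.7% the AP-1 motif. GC content was 56.4% for Cd44, 56.0% for Hyal1 and 55.6% for Hyal2, against a median of 52.4% over all promoters.

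In the genome (mm10), Has1 (ENSMUSG00000003665.6) lies on chromosome 17 from 17843323 to 17855205 on the minus strand, and Has2 (ENSMUSG00000022367.7) on chromosome 15 from 56665627 to 56694539, minus strand. Has3 (ENSMUSG00000031910.14) lies on chromosome 8 from 106870242 to 106884566, plus strand, and Cd44 (ENSMUSG00000005087.17) on chromosome 2 from 102811141 to 102901665, minus strand. Hyal2 (ENSMUSG00000010047.12, 107567945 to 107572779) and Hyal1 (ENSMUSG00000010051.15, 107576927 to 107581710) are neighbours on the plus strand of chromosome 9. Hyal1 overlaps Naa80 and Hyal3 on the same strand and Gm16343 on the other. On the opposite strand, Has2 overlaps its antisense gene Has2os, Has3 overlaps Chtf8, Hyal2 overlaps Gm9917 and Cd44 overlaps Gm23731. The strand setting of the counting is not given in the sources used here, so values of these 5 members are uncertain to the extent that reads of these neighbours entered them.

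Libraries held 12208522 to 16743144 expected counts. Adam17 itself was lower in the knockout, at -0.75 on the log2 scale in skin (adjusted p = 0.00797, edgeR) and at -0.66 in epidermis (adjusted p = 0.00213), so most of its transcript remained in these libraries. Reads of 4 Y-linked genes were 0 in all 6 wild type libraries and were present in 5 of the 6 knockout libraries, and 3 of these (Skin KO 3, Epidermis KO 2 and Epidermis KO 3) also held Xist reads. Sex and genotype are thus partly confounded, and every call of a member between knockout and wild type given below was also made when the share of Y-linked reads was a covariate. The fall of Adam17 in skin was -0.59 and not called with that covariate (adjusted p = 0.0805). Skin KO 1 held 1728 Y-linked and 0 Xist reads, Skin KO 2 held 0 and 430, and Epidermis KO 1 held 1781 and 0. Whether the libraries with both kinds of reads are pools of mice is not given in the sources used here. Keratinocyte markers summed to 26790 to 31460 CPM (read counts scaled to a common library total) in Skin WT and 51920 to 58080 in Epidermis WT, and fibroblast markers to 1811 to 2446 CPM in Skin WT and 5.87 to 10.5 in Epidermis WT, so the labelled tissues were told apart by their markers. In Skin KO keratinocyte markers summed to 47620 to 56940 CPM, adipocyte markers to 111 to 271 (1362 to 1734 in Skin WT), skeletal muscle markers to 432 to 2299 (6439 to 53590) and endothelial markers to 23.1 to 32.0 (84.4 to 97.3). In Epidermis KO keratinocyte markers summed to 67010 to 96600 CPM. These sums do not speak for all 6 keratinocyte markers. Of them, 2 were called higher and 0 lower in Skin KO, and 2 higher and 1 lower in Epidermis KO (edgeR). Mean Krt1 went from 2426 to 16630 CPM in skin and from 4440 to 28670 CPM in epidermis. Mean Trp63 went from 363.6 to 277.9 CPM and from 395.5 to 320.4 CPM. The part of these markers in the results below was not tested.

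Has3, a synthase known from keratinocytes, changed most of the 6 genes, and Cd44 rose by over 2 log2 units in both tissues. In Epidermis WT the level of Has3 was low, with a mean of 2.56 CPM. Of the 6 members, 4 were higher in Skin KO than in Skin WT and none was lower, in a comparison in which 45.5% of all tested genes passed, 22.2% as higher and 23.3% as lower. In epidermis 4 of the 5 members tested were higher, where 51.5% of all tested genes passed, 26.2% as higher and 25.3% as lower. The median log2 fold change was 1.49 over the 6 members in skin and 1.64 over the 5 tested members in epidermis, against -0.001 and 0.003 over all genes tested. Since the members were chosen with earlier results of these data known, setting them beside all genes is a description and no test. The groups did not overlap for 5 of 6 members in skin (58% of all tested genes) and for 3 of 5 in epidermis (62%). All levels in single libraries below are TMM-scaled CPM, given in the order of the replicate numbers, and a test called a difference at an adjusted p under 0.05 over all genes tested. In bulk tissue, fewer cells of a type and less RNA per cell cannot be told apart.

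**Figure D1:**
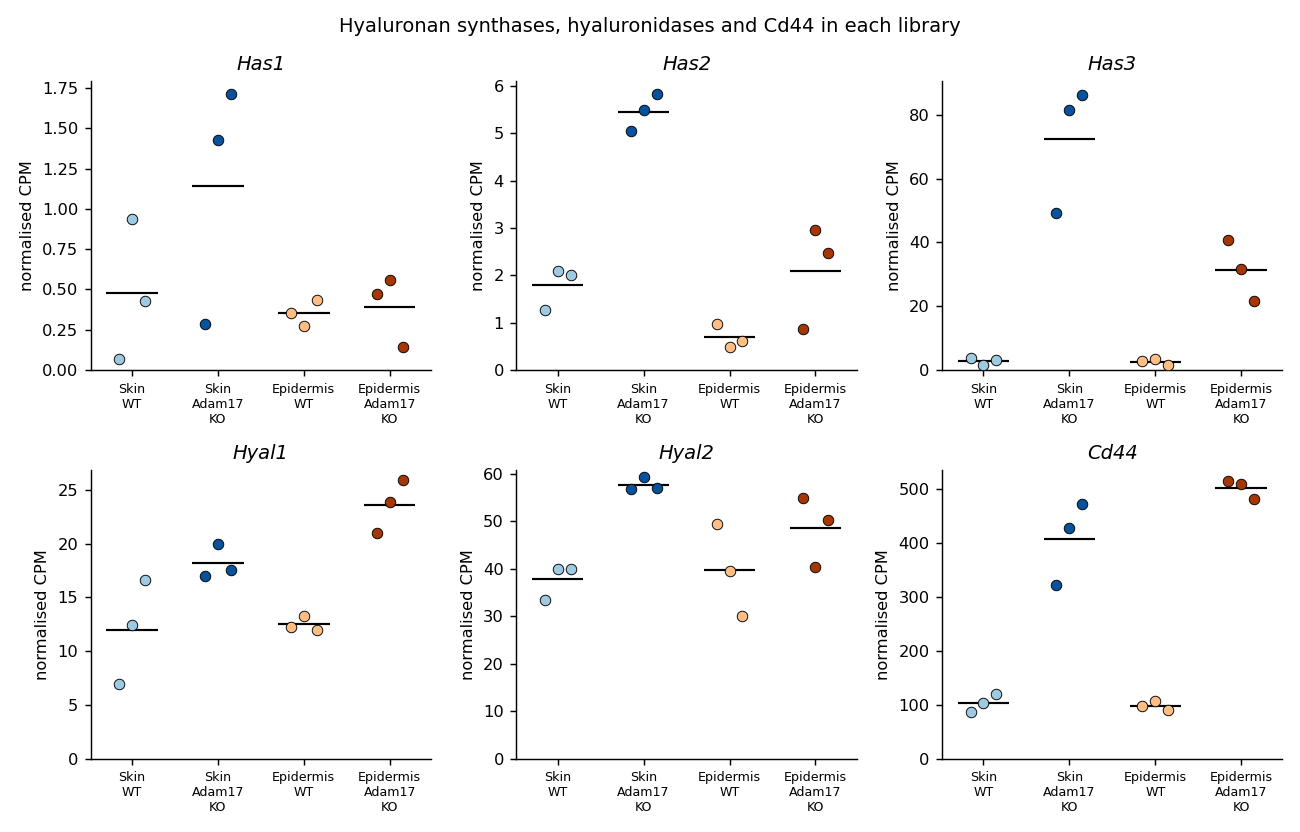
Scaled CPM (y axis, linear, from 0) of the 6 genes in each of the 12 libraries, with points for libraries and bars for group means. The Has3 and Cd44 values of every knockout library lie above those of every wild type library of the same tissue, while Has1 overlaps between genotypes in both tissues.

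Among the synthases, Has3 stood at 3.78, 1.51 and 3.16 CPM in Skin WT and at 49.2, 81.3 and 86.3 CPM in Skin KO. In epidermis it was at 2.91, 3.31 and 1.47 CPM in wild type and at 40.8, 31.8 and 21.8 CPM in the knockout. All knockout libraries were above all wild type libraries of their tissue, and the lowest knockout library of each tissue was still several times the highest wild type one. The log2 fold change was 4.78 in skin (SE 0.40, 27.5-fold, adjusted p = 0.000298, edgeR) and 3.61 in epidermis (SE 0.32, 12.2-fold, adjusted p = 6.96e-05). Skin KO 2, without Y-linked reads, had a Has3 level between those of the other Skin KO libraries.

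Has2, the synthase best known from dermal fibroblasts and needed for heart development, was at 1.26, 2.09 and 2.004 CPM in Skin WT and at 5.04, 5.498 and 5.83 CPM in Skin KO. These groups did not overlap, and the log2 fold change was 1.69 (SE 0.25, 3.24-fold, adjusted p = 0.00216). In epidermis the gene was sparse, with 25 reads over the 3 wild type libraries and 83 over the 3 knockout libraries, at 0.971, 0.483 and 0.605 CPM against 0.870, 2.95 and 2.47 CPM. Epidermis KO 1 fell within the wild type range and the other two knockout libraries lay above it. The log2 fold change of 1.64 (SE 0.52, adjusted p = 0.0266, edgeR) was called, but the call was lost when Epidermis WT 2, Epidermis WT 3, Epidermis KO 2 or Epidermis KO 3 was left out (adjusted p from 0.0735 to 0.0974). Its antisense gene Has2os was too low to be tested, with 16 reads over Skin WT, 9 over Skin KO, 2 over Epidermis WT and 8 over Epidermis KO. Fibroblast markers moved in opposite ways in the tissues, from 1811 to 2446 CPM in Skin WT to 688.6 to 1595 in Skin KO, and from 5.87 to 10.5 CPM in Epidermis WT to 59.8 to 112 in Epidermis KO, with all 6 markers detected in each group. Their part in the Has2 values was not tested.

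Has1, a synthase with few reads here, was at 0.070, 0.940 and 0.426 CPM in Skin WT and at 0.284, 1.43 and 1.71 CPM in Skin KO. The groups overlapped, and the log2 fold change of 1.28 (SE 0.81) was not called (adjusted p = 0.239, edgeR). In epidermis the gene had 13 reads over the wild type and 15 over the knockout libraries and did not pass the filter on low counts. Without 1 library at a time, the skin value ran from 0.81 to 2.23 and stayed uncalled. In a library 3 counts correspond to 0.179 to 0.246 CPM by total counts, before TMM scaling.

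Per transcript length, in length-scaled TPM units, the make-up of the synthase pool changed between genotypes. Has3 was 50.1% ± 15.2 (SD, n = 3) of the summed synthase TPM in Skin WT and 86.8% ± 0.469 in Skin KO. In epidermis it was 54.8% ± 13.9 in wild type and 88.0% ± 5.22 in the knockout. The highest wild type share was 68.6% and the lowest knockout share 84.9%. Has2 made up 32.9% of the pool in Skin WT and 9.48% in Skin KO although its own level rose, and 21.1% and 8.96% in epidermis. These shares rest on few reads of Has1 and Has2, and no test was run on them. In the wild type groups Has3 was sparse too, with 135 reads over Skin WT and 98 over Epidermis WT. In Skin WT 2 its TPM of 0.88 came from 29 reads and a transcript length of 2761 bases. The lengths in Skin WT 1 and Skin WT 3 were 5734 and 5176 bases, so the Skin WT share depends on that short length.

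**Figure D2:**
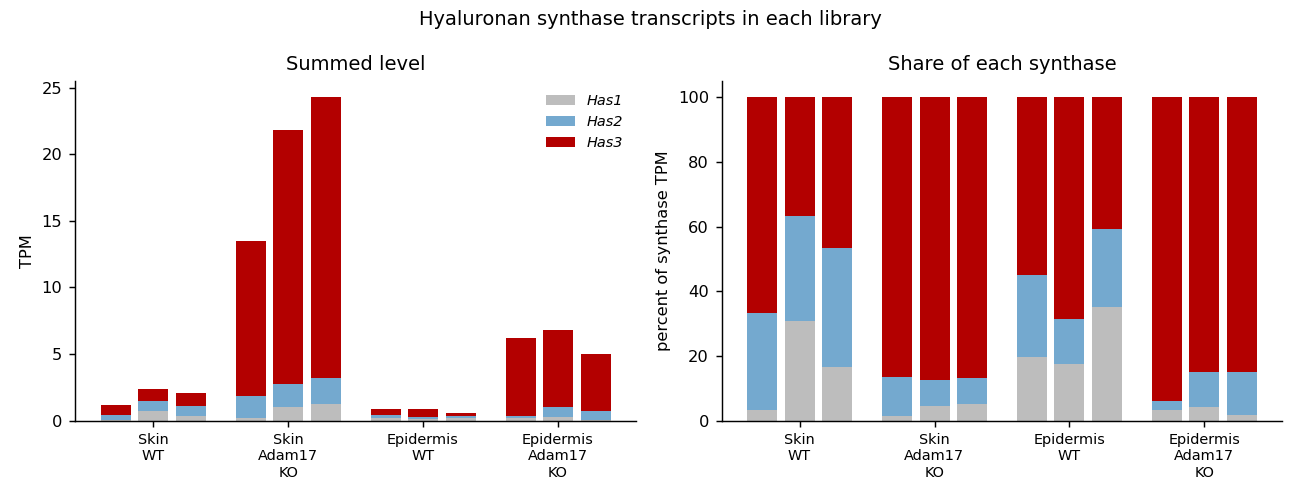
Left, summed TPM of Has1, Has2 and Has3 in each library, stacked by gene. Right, the percent each gene holds of that sum, where Has3 takes at least 84.9% in each knockout library and at most 68.6% in each wild type library.

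The hyaluronidases changed less. Hyal1, the lysosomal enzyme, was at 12.3, 13.3 and 11.9 CPM in Epidermis WT and at 21.0, 23.8 and 25.9 CPM in Epidermis KO. These groups were well apart, with a log2 fold change of 0.93 (SE 0.14, 1.91-fold, adjusted p = 0.000827, edgeR). In whole skin it was at 6.93, 12.4 and 16.6 CPM in wild type and at 17.03, 19.9 and 17.6 CPM in the knockout, so that the groups only just did not overlap and the wild type libraries were widely spread. The log2 fold change there was 0.70 (SE 0.29) and was not called (adjusted p = 0.0893). With the replicate number as a block, a pairing that the data only hint at, it was 0.76 (adjusted p = 0.0493). Without Skin WT 3 it was 0.98 (adjusted p = 0.0378).

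Hyal2, the membrane-anchored enzyme, was at 33.5, 39.96 and 40.03 CPM in Skin WT and at 56.8, 59.4 and 57.0 CPM in Skin KO. The groups did not overlap, and the log2 fold change was 0.70 (SE 0.12, 1.63-fold, adjusted p = 0.00328, edgeR). In epidermis the wild type libraries ran from 30.1 to 49.5 CPM and the knockout libraries from 40.3 to 55.0 CPM. These ranges overlapped, and the log2 fold change of 0.30 (SE 0.19) was not called (adjusted p = 0.209).

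Cd44 was at 87.5, 102 and 120 CPM in Skin WT and at 323, 429 and 473 CPM in Skin KO. In epidermis it was at 97.0, 107 and 90.5 CPM in wild type and at 515, 510 and 482 CPM in the knockout. Every knockout library was above every wild type library, and on this scale the 3 Epidermis KO libraries were above all Skin KO libraries. In deposited TPM that order did not hold, with 88.9, 119.7 and 138.4 in Skin KO and 85.2, 108.3 and 114.0 in Epidermis KO. The log2 fold change was 2.08 in skin (SE 0.19, 4.22-fold, adjusted p = 0.000416, edgeR) and 2.37 in epidermis (SE 0.12, 5.16-fold, adjusted p = 5.83e-06). Leukocytes also express Cd44: neutrophil markers summed to 0.210 to 0.972 CPM in Skin WT, with Ly6g, Mmp8 and Ngp at 0, and to 30.2 to 35.0 CPM in Skin KO. In Epidermis WT they summed to at most 0.177 CPM, with Ly6g, Csf3r, Mmp8 and Ngp at 0, and in Epidermis KO to 46.2 to 73.4 CPM. Most of the knockout sums was Cxcr2 alone, with a mean of 28.6 CPM in Skin KO and 55.2 CPM in Epidermis KO. Ly6g, Ngp and Camp had 5, 7 and 2 reads over Skin KO and 10, 12 and 1 over Epidermis KO. Of the 6 neutrophil markers, 2 had enough reads to be tested between genotypes in each tissue. Macrophage markers summed to 135.5 to 168.4 CPM in Skin WT and 62.7 to 124 in Skin KO, and to 18.0 to 20.1 CPM in Epidermis WT and 28.0 to 54.2 in Epidermis KO. Of the 5 macrophage markers, 0 were called higher and 2 lower in skin (edgeR). In epidermis 4 were tested, with 3 called higher and 0 lower. Mean Cd68 went from 12.2 to 13.9 CPM in skin, and mean Adgre1 from 1.985 to 2.067 CPM in epidermis. T cell markers summed to 34.5 to 43.1 CPM in Skin WT and 36.2 to 49.6 in Skin KO, and to 36.7 to 45.8 CPM in Epidermis WT and 41.3 to 75.9 in Epidermis KO. Of the 5 T cell markers, 2 were called higher and 0 lower in skin, and 1 higher and 0 lower in epidermis. In skin mean Cd3e went from 6.59 to 4.89 CPM and mean Cd3d from 4.63 to 9.07 CPM. The part of these cells in the Cd44 values was not tested.

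**Figure D3:**
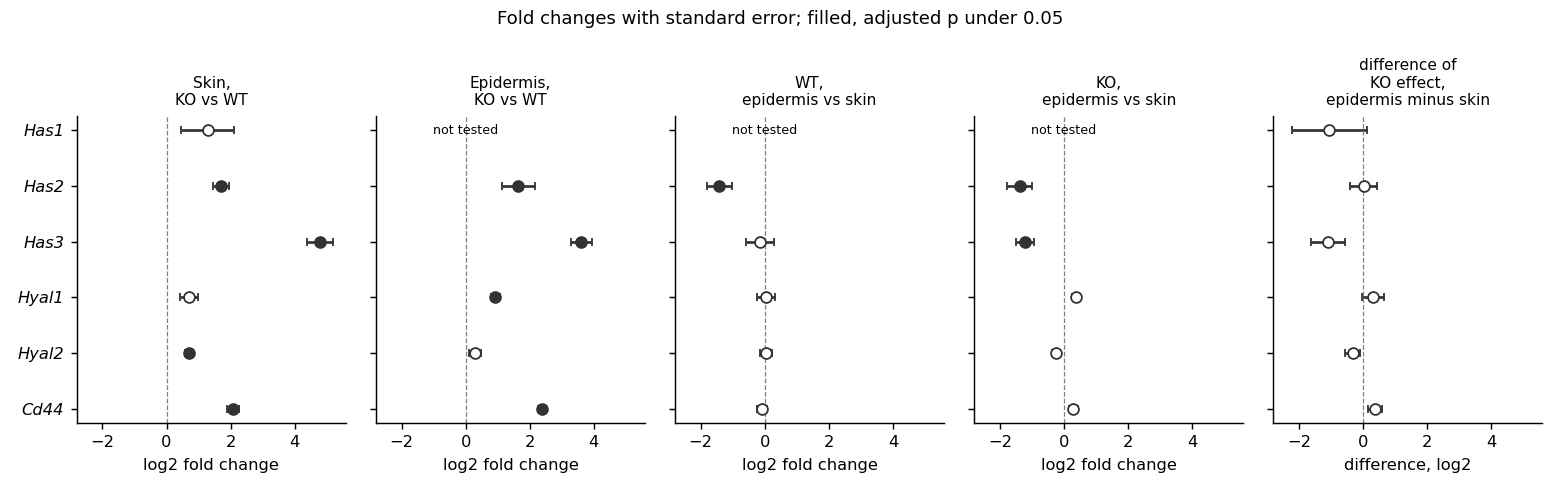
Log2 fold changes (x axis) of the 6 genes in the 4 comparisons of pairs of groups and the difference of the knockout effects between tissues, with bars for 1 standard error and filled points for an adjusted p under 0.05. Has3 and Cd44 lie farthest to the right in both knockout comparisons, and no point is filled in the difference.

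Genes can be set against each other only per length, in TPM. For Has3 in Skin WT 2 that length was short, as given above, and the Has3 mean and SD in Skin WT depend on it. In Skin WT, Hyal2 (32.6 ± 8.54, SD, n = 3) and Cd44 (31.2 ± 10.2) led and did not differ beyond their spread, followed by Hyal1 (7.04 ± 3.88), Has3 (0.88 ± 0.10), Has2 (0.63 ± 0.24) and Has1 (0.377 ± 0.351). The order was alike in Epidermis WT, with Hyal2 at 22.0 ± 6.50 and Cd44 at 19.0 ± 3.30 TPM within their spread of each other, then Hyal1 at 4.62 ± 0.687 and Has3 at 0.437 ± 0.193, and Has1 (0.173 ± 0.021) and Has2 (0.16 ± 0.061) not told apart. In Skin KO, Cd44 came first at 116 ± 25.0 TPM, then Hyal2 at 46.0 ± 0.754, and Has3 at 17.3 ± 4.95 stood above Hyal1 at 9.73 ± 0.764. Has2 at 1.80 ± 0.171 and Has1 at 0.81 ± 0.543 closed that order. In Epidermis KO the TPM were 103 ± 15.2 for Cd44, 27.3 ± 4.34 for Hyal2, 9.05 ± 2.52 for Hyal1, 5.29 ± 0.930 for Has3, 0.523 ± 0.308 for Has2 and 0.19 ± 0.105 for Has1. There Has3 remained under Hyal1 in mean TPM, unlike in Skin KO.

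The tissues were also compared within each genotype. Wild type epidermis and wild type skin differed in 1 of 5 tested members, Has2, which was lower in epidermis at -1.41 on the log2 scale (SE 0.38, adjusted p = 0.0193, edgeR). In that comparison 42.9% of all tested genes passed, 17.6% as higher and 25.3% as lower, and the groups did not overlap for 1 of 5 members against 56.5% of all tested genes. That call was lost when Skin WT 2, Skin WT 3, Epidermis WT 2 or Epidermis WT 3 was left out (adjusted p from 0.0636 to 0.0804). Has3, Hyal1, Hyal2 and Cd44 had wild type values that overlapped between tissues and log2 fold changes of -0.16, 0.04, 0.04 and -0.10, none of them called. Between the knockout tissues 2 of 5 tested members were lower in epidermis, where 29.9% of all tested genes passed, 14.1% as higher and 15.9% as lower: Has2 by -1.38 (SE 0.39, adjusted p = 0.0367) and Has3 by -1.21 (SE 0.28, adjusted p = 0.0176). Has2 lost its call when any Skin KO library or Epidermis KO 3 was left out (adjusted p from 0.0679 to 0.111), and Has3 when Skin KO 2, Skin KO 3 or Epidermis KO 2 was (0.053 to 0.0655). Has1 did not pass the filter in this comparison, but without Skin KO 1 it was tested and called lower in epidermis (-2.01, adjusted p = 0.0396). Hyal1 (0.37, adjusted p = 0.0549), Hyal2 (-0.25, adjusted p = 0.151) and Cd44 (0.29, adjusted p = 0.162) were not called. The knockout libraries of the tissues did not overlap for any of the 5 tested members, nor for 47.9% of all tested genes. With scaling by total counts, the Cd44 value was -0.0007 and Hyal2 was called at -0.55 (adjusted p = 0.0121). The 4 comparisons share groups, so their values stand side by side and are not independent. That scaling also changed the split of all called genes, of which 23.69% in place of 40.94% were higher in wild type epidermis and 12.42% in place of 47.05% in knockout epidermis.

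The knockout effect itself was compared between tissues by the interaction term, in which 16.5% of all tested genes passed, 10.1% as positive and 6.36% as negative. It was called for 0 of the 6 members by edgeR and by DESeq2, and none had an unadjusted p under 0.05. The difference, epidermis minus skin on the log2 scale, was -1.10 for Has3 (SE 0.53, adjusted p = 0.173), 0.37 for Cd44 (SE 0.22, adjusted p = 0.264), 0.32 for Hyal1 (SE 0.34, adjusted p = 0.545) and -0.32 for Hyal2 (SE 0.24, adjusted p = 0.376). For Has2 it was 0.02 (SE 0.42) and for Has1 -1.05 (SE 1.16), which ran from -1.99 to -0.59 over the alternatives. The call of Hyal1 in epidermis only and of Hyal2 in skin only is therefore not a shown difference between tissues.

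RSEM's length of a gene, the mean of its transcripts' lengths weighted by abundance, moves when the mix of transcripts moves. Cd44, which has many alternatively spliced forms and 9 transcripts in these tables, had a length of 5084, 5123 and 5052 bases in Epidermis WT and 4959, 4889 and 4819 bases in Epidermis KO. The groups did not overlap, with means of 5086 ± 35.4 and 4889 ± 69.9 bases (SD, n = 3, exact permutation test, two-sided, p = 0.1, adjusted over 16 tests p = 0.32), and 0.1 is the smallest p that 3 against 3 allow. In skin the Cd44 lengths overlapped, at 4907 ± 155 bases in wild type and 4920 ± 64.7 bases in the knockout. The splicing regulator Esrp2, known to act on Cd44 variant exons, was higher in the knockout by 0.61 in skin (SE 0.14, adjusted p = 0.0112, edgeR) and 0.52 in epidermis (SE 0.11, adjusted p = 0.00501), and its relative Esrp1 was not called (0.27 and 0.23, adjusted p = 0.145 and 0.133). For Has3, Skin WT 2 stood apart with a length of 2761 bases against 5176 to 5912 in the other wild type libraries. Has1 and Has2 each had 1 transcript in the tables, so their lengths do not vary.

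**Figure D4:**
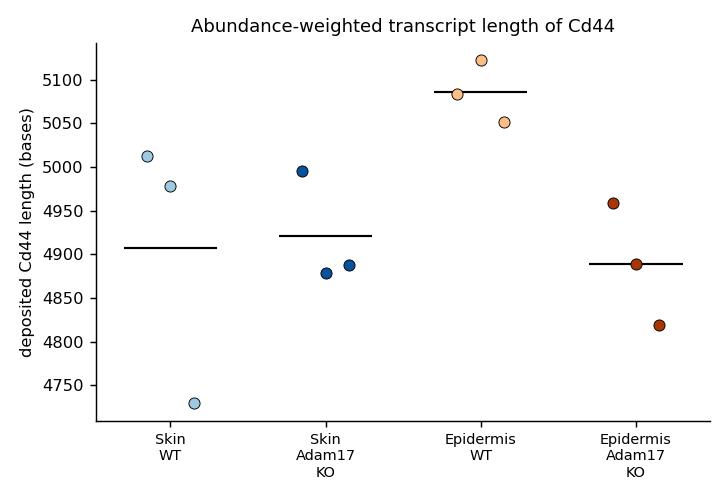
Abundance-weighted transcript length of Cd44 in bases (y axis, not from 0) in each library, with bars for group means. The 3 Epidermis WT libraries lie at 5052 bases or more and the 3 Epidermis KO libraries at 4959 bases or less.

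Other hyaluronan genes were taken from 5 lists of 55 genes, which were also chosen with earlier results of these data known. In skin 38 were tested, of which 13 were higher, 8 lower and 17 not called, with a median log2 fold change of 0.24, where 22.2% of all tested genes were higher and 23.3% lower. In epidermis 32 were tested, of which 15 were higher, 8 lower and 9 not called, with a median of 0.23, where 26.2% of all tested genes were higher and 25.3% lower. The skin count of higher genes was 6 with scaling by total counts, 7 with the Y-linked share as covariate, 8 without Skin KO 2 and 6 without Skin KO 3. The lower count was 9, 5, 8 and 7 under the same settings. In epidermis the covariate gave 12 higher and 4 lower. Among the genes named below, the covariate ended the skin calls of Adam10, Cemip2, Esrp2, Hyal4, Pgm3, Ptx3 and Ugp2 (adjusted p from 0.0566 to 0.157, edgeR) and the epidermis calls of Amdhd2, Ezr, Hexa, Hmmr and Rdx (from 0.0582 to 0.611). Scaling by total counts ended those of Adam10, Cemip2, Esrp2 and Pgm3 in skin (from 0.0524 to 0.116) and of Hexa and Rdx in epidermis (0.0504 and 0.129). A fit of all 12 libraries together ended the skin call of Cemip2 (0.49, adjusted p = 0.076). It also ended the epidermis calls of Ugp2 (-0.51, adjusted p = 0.109) and Ezr (0.34, adjusted p = 0.0769). Amdhd2 was called lower in skin by that fit (-0.68, adjusted p = 0.0293) and with scaling by total counts (-0.61, adjusted p = 0.0469).

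Of 9 genes that supply the sugar precursors, 1 was higher and 2 lower in skin and 2 were higher and 3 lower in epidermis. Gfpt1, the rate-limiting enzyme of hexosamine synthesis, was higher in epidermis by 1.38 on the log2 scale (SE 0.22, adjusted p = 0.0012, edgeR), at 11.4 ± 0.987 CPM in wild type and 29.3 ± 9.18 CPM in the knockout (SD, n = 3). In skin its log2 fold change of 0.38 was not called (adjusted p = 0.0705). Its relative Gfpt2 had 2 reads over Epidermis WT and 64 over Epidermis KO, a ratio of 30.4 with a 95% exact binomial interval from 8.08 to 257 that covers counting error only. Pgm3, a later step of the same path, was higher in skin (0.68, adjusted p = 0.0155) and was not called in epidermis (0.23, adjusted p = 0.361). The skin call of Pgm3 was lost without Skin KO 2 (0.65, adjusted p = 0.056) or Skin KO 3 (0.67, adjusted p = 0.0581), and with length offsets (0.38, adjusted p = 0.198). Ugp2, which makes UDP-glucose, was lower in both tissues (-1.38, adjusted p = 0.012, and -0.50, adjusted p = 0.00346). Uap1l1 was lower in both (-0.93, adjusted p = 0.00357, and -1.59, adjusted p = 0.000157), and Amdhd2, which breaks hexosamine phosphate down, was lower in epidermis (-1.12, adjusted p = 0.00284) and not called in skin (-0.59, adjusted p = 0.089).

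Of 10 other degradation genes 6 were tested in each tissue, with 2 higher and 2 lower in both. Cemip, which binds and depolymerises hyaluronan outside lysosomes, went from 0.374 ± 0.0819 to 5.36 ± 0.813 CPM in skin and from 0.128 ± 0.112 to 1.60 ± 0.478 CPM in epidermis (SD, n = 3). Its log2 fold change was 3.89 (SE 0.28, adjusted p = 0.000194, edgeR) and 3.50 (SE 0.63, adjusted p = 0.002), with 19 and 5 reads over the wild type groups. Its relative Cemip2 was higher in both (0.58, adjusted p = 0.031, and 1.27, adjusted p = 0.00158). Hyal4, a family member that acts on chondroitin sulfate, was lower in both (-2.04, adjusted p = 0.0121, and -3.28, adjusted p = 0.000848), as was Hexa, a subunit of lysosomal hexosaminidase (-1.32, adjusted p = 0.00286, and -0.61, adjusted p = 0.0321). Cemip2 lost its skin call without Skin WT 3 (0.65, adjusted p = 0.0554), Skin KO 2 (0.60, adjusted p = 0.0733) or Skin KO 3 (0.49, adjusted p = 0.11). Hexa lost its epidermis call without Epidermis WT 1 (-0.52), Epidermis WT 2 (-0.63), Epidermis KO 1 (-0.56) or Epidermis KO 3 (-0.49), with adjusted p from 0.0639 to 0.109.

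Among 5 other receptors, Hmmr, a hyaluronan-binding protein that also belongs to the mitotic spindle, was higher in both tissues (1.98, adjusted p = 0.000842, and 0.83, adjusted p = 0.00551). Sums of proliferation markers went the same way, from 90.0 to 97.8 CPM in Skin WT to 295.5 to 457.7 CPM in Skin KO and from 98.1 to 122 CPM in Epidermis WT to 157 to 235 CPM in Epidermis KO. All 5 were called higher in skin and 4 of 5 in epidermis (edgeR). Mean Cdk1 was 19.4 CPM in Epidermis WT and 19.7 CPM in Epidermis KO. The part of these markers in Hmmr was not tested. Stab1, a scavenger receptor of macrophages and sinusoidal endothelium, had 5 reads over Epidermis WT and 677 over Epidermis KO, at 17.3 ± 3.82 CPM in the knockout (log2 fold change 6.92, SE 0.49, adjusted p = 2.17e-05). In skin it was 18.7 ± 1.61 CPM in wild type and 24.7 ± 5.10 CPM in the knockout and was not called (0.49, adjusted p = 0.068), except without Skin KO 1 (0.67, adjusted p = 0.02) and with the Y-linked share as covariate (0.75, adjusted p = 0.0434). Lyve1, the receptor of lymphatic vessels, had 0 reads over Epidermis WT and 19 over Epidermis KO, at least 6.02-fold higher against a floor of 3 reads over the group. In skin Lyve1 (-0.45, adjusted p = 0.433) and Layn (-0.63, adjusted p = 0.29) were not called.

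Most of the 18 hyaluronan-binding matrix genes were too low, with 5 tested in skin and 2 in epidermis. Itih5, of the family that links covalently to hyaluronan, was lower in both tissues (-2.08, adjusted p = 0.00272, and -1.59, adjusted p = 0.00113). Vcan, the large proteoglycan versican, was higher in epidermis, with 7 reads over wild type and 129 over the knockout (4.09, SE 0.50, adjusted p = 0.0003), and was not called in skin (1.04, adjusted p = 0.0663). With the replicate block the skin value of Vcan was 0.98 and called (adjusted p = 0.0362), as it was without Skin KO 1 (1.37, adjusted p = 0.0126), by DESeq2 (1.05, adjusted p = 0.029) and with the Y-linked share as covariate (1.66, adjusted p = 0.0182). Ptx3, a pentraxin of the hyaluronan matrix, was lower in skin (-2.91, adjusted p = 0.012), and Tnfaip6, which transfers heavy chains onto hyaluronan, was not called there (0.72, adjusted p = 0.277).

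Of 13 genes that bind, cut or splice Cd44, 9 were higher and 2 lower in skin and 8 were higher and 2 lower in epidermis, against 22.2% higher and 23.3% lower of all tested genes in skin and 26.2% and 25.3% in epidermis. Spp1 (osteopontin, a ligand of Cd44) was higher in both (2.22, adjusted p = 0.00432, and 5.11, adjusted p = 0.000423), with 6 reads over Epidermis WT and 222 over Epidermis KO. Of the linkers between Cd44 and actin, Msn was higher in both (1.05, adjusted p = 0.00691, and 1.23, adjusted p = 0.000389), Ezr was higher in both (0.88, adjusted p = 0.00778, and 0.36, adjusted p = 0.0307) and Rdx was lower in both (-0.73, adjusted p = 0.00255, and -0.37, adjusted p = 0.0476). Adam10, the other protease known to cut Cd44, was higher in both (0.68, adjusted p = 0.0217, and 1.22, adjusted p = 9.04e-05). Adam10 lost its skin call without Skin KO 1 (0.68, adjusted p = 0.054) or Skin KO 3 (0.59, adjusted p = 0.0785). The epidermis call of Ezr was lost without Epidermis WT 1 (0.30), Epidermis WT 2 (0.37) or any Epidermis KO library (0.33, 0.35 and 0.40), with adjusted p from 0.0603 to 0.126. That of Rdx was lost without any Epidermis WT library (-0.36, -0.38 and -0.41) or without Epidermis KO 1 (-0.25) or KO 2 (-0.42), with adjusted p from 0.0569 to 0.11. It was also lost by DESeq2 (adjusted p = 0.0606), with no filter (0.0501), with length offsets (0.0551) and with the replicate block (0.0596).

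**Figure D5:**
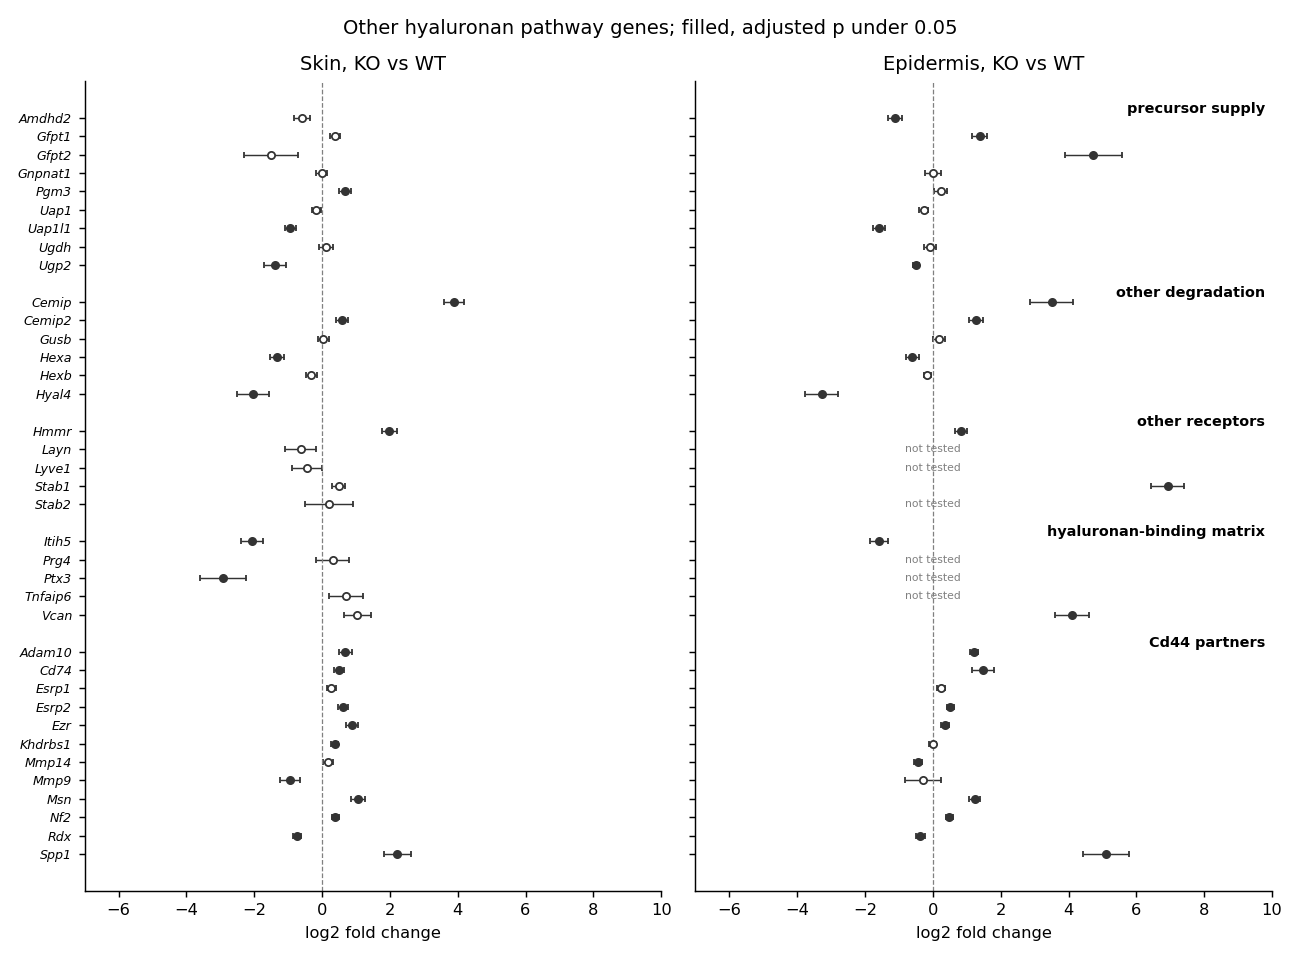
Log2 fold changes (x axis) of the tested and reported genes of the 5 lists in skin and epidermis, knockout against wild type, with bars for 1 standard error and filled points for an adjusted p under 0.05. Cemip, Hmmr, Msn and Spp1 lie to the right and Hyal4, Hexa, Itih5 and Rdx to the left in both tissues.

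Over the 12 libraries, the 3 genes whose levels followed each member most closely were found by Pearson's r of log2(CPM + 0.5), as a description across libraries that share the 4 groups. For Has3 they were Dyrk3 (r = 0.989), Cdhr1 (0.987) and Sprr2e (0.986), and for Cd44 they were Icos (0.993), Abcc3 (0.993) and Irak3 (0.992). Has2 had Alcam (0.951), Nedd9 (0.933) and Ptprk (0.930), Hyal1 had Etv6 (0.965), Ubap2l (0.963) and Maml3 (0.957), and Hyal2 had Ddias (0.945), Wdr3 (0.930) and Gskip (0.922). Sc5d (0.864), Klf10 (0.788) and Tent4a (0.788) came nearest to the sparse Has1. Among the members, the highest r was 0.936, between Has3 and Cd44.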

How the data were processed

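RNA-seq libraries of whole skin and epidermis from wild type and Adam17 conditional knockout mice were analysed, 3 per group. Reads were processed with STAR 2.5.1, bcl2fastq 2.17 and RSEM on mm10, per the submitters' processing notes, after a stranded mRNA kit per the labels' protocols. The deposited expected counts are RSEM estimates per gene that share reads of overlapping genes by probability, and non-whole values made up 8.42% to 9.98% per library. The deposited TPM and FPKM values are normalised per length and depth by the authors' RSEM run, per the file headers, as are the deposited transcript lengths. The annotation release is not given in the sources used here. Of 47643 gene IDs 47224 were matched to GENCODE mouse release 21 without the version number.

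Expected counts were rounded. edgeR 4.0.16 in R 4.3.3 was used with TMM scaling, the default filter on low counts, quasi-likelihood tests and adjustment of p-values by Benjamini and Hochberg over all genes tested, called at 0.05. Each pair of groups was fitted alone, and the interaction in all 12 libraries. DESeq2 1.42.0, other scalings, no filter, length offsets, a replicate block and the Y-linked share as covariate were alternatives. So were leaving out each library and, for pairs of groups, a fit of all 12 libraries together. Standard errors are the fold change divided by the square root of F. The test was also run on simulated counts with the same dispersion for all genes and few changed genes. That setting is unlike these data, so it does not show how the test performs here. Transcript lengths were compared by exact permutation. Named genes are the members, Adam17, up to 4 genes per list and tissue (smallest adjusted p), Esrp1, Esrp2, Has2os, and for each member the 3 genes of highest r among genes with a mean of at least 1 CPM. The values of 1 list gene are not reported here. Members and lists were chosen with earlier results of these data known. Same-numbered skin libraries deviated together (correlations 0.343, 0.347 and 0.249, each over 0.1), which was read as a hint of pairing. Some differently numbered libraries also passed 0.1. They include Skin KO 1 with Skin WT 3 (0.101), Skin KO 3 with Skin WT 2 (0.166) and Epidermis WT 2 with Skin WT 3 (0.429). The epidermis pairs (0.098, 0.21 and -0.115) and the pairs across tissues did not meet that limit. This pairing is a hint from the data, since the labels give only the numbers.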

Additional observations from a re-analysis of the deposited data

Results flagged for a closer look

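The knockout effect differed between epidermis and skin, by the interaction term of the edgeR fit of all 12 libraries, in 9 of 39 tested hyaluronan pathway genes, 8 with a positive and 1 with a negative difference, where 16.5% of all tested genes passed. Of these, 7 are among the named genes, none of which is a synthase, Hyal1, Hyal2 or Cd44. The difference, epidermis minus skin on the log2 scale, was 6.52 for Stab1 (SE 0.56, adjusted p = 0.00021), 6.37 for Lyve1 (adjusted p = 0.0441) and 6.33 for Gfpt2 (adjusted p = 0.0219). It was 3.14 for Vcan (adjusted p = 0.0137), 2.97 for Spp1 (adjusted p = 0.0375) and 1.08 for Gfpt1 (adjusted p = 0.0263). For Hmmr it was -1.08 (adjusted p = 0.0268). Epidermis WT held 0 to 7 reads over the group of Stab1, Lyve1, Gfpt2, Vcan and Spp1, so the fitted sizes for these genes depend on the prior count. Over 20 alternatives, the call was kept in 20 for Stab1 and Vcan, in 16 for Gfpt2, in 15 for Hmmr, in 14 for Gfpt1, in 9 for Spp1 and in 8 for Lyve1. Without Skin KO 2 the call was lost for Gfpt1 (1.06, adjusted p = 0.0622), Gfpt2 (6.15, adjusted p = 0.0531), Hmmr (-0.95, adjusted p = 0.0703), Spp1 (2.86, adjusted p = 0.0807) and Lyve1 (6.13, adjusted p = 0.0803). Without Epidermis KO 2 it was lost for Gfpt2 (5.63), Hmmr (-1.01), Spp1 (2.55) and Lyve1 (5.70). Skin WT 3, Skin KO 1, Epidermis WT 1 and Epidermis WT 3 each ended the call of Gfpt1 when left out (0.96, 1.04, 1.06 and 1.01), Epidermis WT 2 and 3 that of Gfpt2 (6.57 and 5.86), and Skin KO 3, Epidermis WT 1 and Epidermis WT 2 that of Hmmr (-1.04, -1.04 and -1.03). Spp1 was called only without Skin WT 2, Skin KO 3 or Epidermis KO 3 among the 12 libraries left out in turn, and Lyve1 only without Skin WT 1, Skin KO 3 or Epidermis KO 3. All 6 fibroblast markers and all 5 skeletal muscle markers also had a positive difference that passed, as had 4 of 5 endothelial and 3 of 5 macrophage markers, while 4 of 5 proliferation markers had a negative one. Their part in these 7 results was not tested.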

How the results depend on the processing

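Across 15 alternatives the rise of Has2, Has3, Hyal2 and Cd44 in skin and of Has3, Hyal1 and Cd44 in epidermis kept its direction and its call in each, with log2 fold changes of Has3 from 4.43 to 5.12 in skin and 3.31 to 3.84 in epidermis and of Cd44 from 1.96 to 2.27 and 2.30 to 2.43. Alternatives were another tool, scalings, filter, length offsets, the replicate block, the Y-linked share, a fit of all 12 libraries together and each library left out. The Y-linked share could not be used between wild type tissues, which hold no such reads. Below, the cause of a change was not tested.

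With the replicate block, Hyal1 in skin was called (0.76), Has2 was not called in epidermis (1.55, adjusted p = 0.0582), between wild type tissues (-1.42, adjusted p = 0.0527) or between knockout tissues (-1.48, adjusted p = 0.0502), and Has3 was not called between knockout tissues (-1.21, adjusted p = 0.0585). The block changed no other call of a member, and 2805 genes were called between knockout tissues in place of 4227. Only the skin numbers met the limit of the check, which is no more than a hint of pairing.

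With scaling by total counts, wild type epidermis against skin turned to -0.23 for Hyal1 and -0.19 for Hyal2, and Cd44 between knockout tissues to -0.0007, none called, while Hyal2 there was called at -0.55. That scaling moved the median of all genes from -0.066 to -0.301 between wild type tissues and from 0.008 to -0.284 between knockout tissues. Length offsets turned Hyal1 to -0.004 and Hyal2 to -0.023 between wild type tissues. With the Y-linked covariate 4540 genes were called in epidermis, against 7014 without it. The difference of the Has2 effect, 0.02, was -0.0004 with RLE scaling, -0.027 with no filter, -0.081 with the block and -0.12 with the Y-linked covariate.

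With each library left out in turn, log2 values ran from 0.41 to 0.98 for Hyal1 in skin and from 1.32 to 1.996 for Has2 in epidermis. Between wild type tissues they ran from -1.73 to -1.18 for Has2, -0.47 to 0.16 for Has3, -0.21 to 0.34 for Hyal1, -0.14 to 0.21 for Hyal2 and -0.17 to 0.0145 for Cd44. Between knockout tissues they ran from -1.69 to -1.01 for Has2, -1.43 to -0.99 for Has3 and 0.30 to 0.46 for Hyal1, which was called without Epidermis KO 1 (0.46, adjusted p = 0.0411). The Has2 difference of effects ran from -0.30 to 0.38. Calls between knockout tissues numbered 2328 (without Skin KO 3) to 3561, and calls of the difference of effects 1397 (without Skin KO 2) to 3940 (without Skin WT 1). Transcript length differences, in bases, ran from -71.2 to 28.8 for Hyal1 and -75.0 to 66.5 for Cd44 in skin, from -51.9 to 36.3 for Hyal1 in epidermis, from -4.9 to 95.1 for Hyal1 between wild type tissues and from -66.5 to 5.7 for Cd44 between knockout tissues. The groups held 13 to 51 reads of Has1, and the epidermis groups 25 and 83 reads of Has2.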
